A study of Homo sapiens with 13 samples.

Results

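The 9 genes SYN1, SYN2, SYP, SV2A, SNAP25, VAMP2, STX1A, RIMS1 and UNC13A code for proteins of the presynaptic terminal, the side of a synapse that releases transmitter. They were picked by symbol from 60639 genes in the deposited count tables, and their levels were followed through all 13 libraries of the study. The libraries are bulk RNA sequencing of H9 human embryonic stem cells with an inducible gene for NEUROG2, a transcription factor of early neurons that doxycycline switches on. According to the series' text, forced NEUROG2 turns these cells into excitatory neurons that no longer divide, and the title asks how the growth factor FGF2 acts on their gene expression.

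Each library came from 1 well of cells of a stable H9-derived line. All differentiating cultures had 2 days of E8 stem cell medium and then 3N medium. The doxycycline set holds 5 groups of 1 library: the cells on day 0, cells on day 5 and day 11 without doxycycline (the controls), and cells on day 5 and day 11 with doxycycline at 1 µg/ml throughout. The FGF2 set holds 4 groups of 2 libraries, and every one of its cultures, controls included, received doxycycline at 1 µg/ml for the first 6 days. The day-6 control had no FGF2, and the day-6 FGF2 group had FGF2 at 20 µg/ml (as labelled) together with doxycycline for those 6 days (early FGF2). The day-12 control then spent 6 more days in 3N medium without doxycycline, and the day-12 FGF2 group spent them with FGF2 at 20 µg/ml (late FGF2). The labels give no promoter for the NEUROG2 construct. The titles of the FGF2 set carry the names hES-N2G1 and hES-N2G2, each once in all 4 groups. They were taken as replicates 1 and 2 and not as pairs, and the source name of each library is hES-N1. What these numbers stand for is not stated, so the p-values measure only the spread between these wells.

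Synaptic vesicles store transmitter and fuse with the membrane when calcium enters the terminal. Synapsins tether vesicles, synaptophysin and SV2 proteins sit in the vesicle membrane, and the SNARE proteins VAMP2, SNAP25 and syntaxin zip together to drive fusion. At the active zone, RIM scaffolds hold vesicles and calcium channels in place, and Munc13 proteins make docked vesicles ready to fuse.

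Levels are given as CPM, counts per 1000000 counts after TMM scaling within each set, and the sets were never tested against each other because they were sequenced in separate runs. Library totals ran from 28443657 to 47159475 counts for the doxycycline run and from 22802501 to 30014661 for the FGF2 run. NEUROG2 stood at 0.456 CPM on day 0, at 1.34 and 6.26 CPM in the uninduced libraries, and at 1564 and 1018 CPM with doxycycline on days 5 and 11. In the FGF2 set it stood at 7626 ± 116 CPM (SD, n = 2) in the day-6 control and at 52.0 ± 3.76 CPM (SD, n = 2) in the day-12 control, after doxycycline had been withdrawn. The summed level of 10 neuron markers was 82.1 to 325.5 CPM in the 3 libraries without doxycycline and 12020 to 26950 CPM in the 10 libraries with it, where all 10 markers reached 1 CPM. Of 9 stem cell markers, 8 or 9 reached 1 CPM without doxycycline, with sums of 2166 to 4786 CPM, and 3 to 8 with it, with sums of 184.9 to 612.5 CPM. Of 3 markers of GABAergic neurons, 0 to 1 reached 1 CPM in libraries with doxycycline and 1 to 2 in those without it. Of 8 markers of endocrine or chromaffin cells, 2 to 4 reached 1 CPM without doxycycline and 3 to 5 with it. Their sums were 12.4 to 74.0 CPM without it and 657.0 to 1487 CPM with it. Among them CHGA stood at 11.3 and 1289 CPM without and with doxycycline on day 5. In bulk RNA, a lower share of cells that express a gene and less of its RNA per cell cannot be told apart. The 2 day-6 FGF2 wells stood further apart than other replicates, with a chi-square per degree of freedom over genes of 21.2 against 3.02 to 3.46 in the other groups.

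With doxycycline, the presynaptic genes were higher than in the uninduced control of the same day. On day 5, 7 of 9 were at least 4-fold higher after 1 CPM was added to both values, where 12.6% of 12895 genes were that much higher, 11.5% that much lower and 24.1% either. Genes entered this count if at least 1 of the pair of libraries had 10 CPM. On day 11 it was 9 of 9, against 11.5% of 12655 genes higher, 9.85% lower and 21.4% either. Their median log2 ratio was 3.41 on day 5 and 3.05 on day 11, beside 0.23 and 0.16 for all genes counted. Genes with a control below 10 CPM entered only through the library with doxycycline, where they are high. Among the 9 these were SYN1, SYN2, SNAP25 and RIMS1 on day 5, and also SYP and STX1A on day 11. The counts and medians are thus descriptions and no independent support. The values come from single libraries with no test, and the intervals given below are 95% exact binomial intervals that cover counting error only. The scaling matters at the threshold: when TMM gives way to library totals, the log2 ratio before 1 CPM is added shifts by -0.16 on day 5 and -0.31 on day 11 for every gene, and 6 of 9 and 8 of 9 genes remain past 4-fold. Over all genes, TMM scaling gave 1625 higher against 1477 lower on day 5, and the deposited normalized values of the authors gave 2244 against 1203. On day 11 TMM scaling gave 1457 against 1247, and library totals gave 1203 against 1625.

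**Figure D1:**
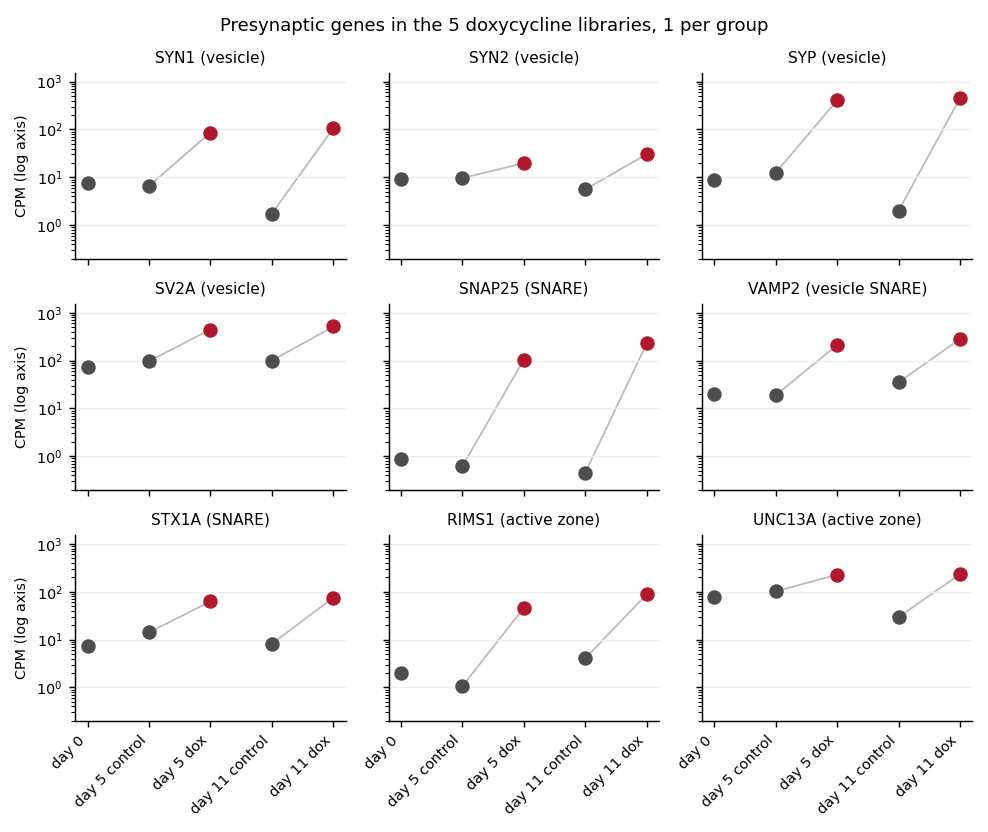
CPM of each gene (log axis) in the 5 libraries of the doxycycline set, 1 point per library, grey without and red with doxycycline, with lines joining the libraries of the same day. In every panel the red points lie above the grey ones, by 2.04-fold for SYN2 on day 5 up to 505-fold for SNAP25 on day 11.

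From day 5 to day 11 with doxycycline, 0 of 9 genes moved by 4-fold, where 1.96% of 11465 genes did, 0.741% higher and 1.22% lower. That background was 85 against 140 genes with TMM, and 62 against 221 with the authors' normalized values. SNAP25 was 2.18 times its day-5 level (interval 2.10 to 2.26), RIMS1 1.91 times (1.80 to 2.03) and SYN2 1.54 times (1.40 to 1.69). The other 6 genes stood between 1.03 and 1.33 times. Without doxycycline, 5 of the 9 genes reached 10 CPM in either library of the comparison of day 5 with day 0 (SYP, SV2A, VAMP2, STX1A and UNC13A) and 3 in that of day 11 (SV2A, VAMP2 and UNC13A), and 0 of these were 4-fold different. The background was 1.05% of genes on day 5 (0.839% higher, 0.21% lower) and 4.57% on day 11 (2.11% higher, 2.46% lower). On day 5 these were 100 genes higher against 25 lower, and 67 against 67 with the authors' normalized values. On day 11 they were 253 against 295, and 212 against 389 with those values. The uninduced level itself was not flat: SYN1, SYP and UNC13A stood at 0.228, 0.230 and 0.372 times their day-0 level in the day-11 control, while RIMS1 and VAMP2 stood at 2.03 and 1.76 times. These ratios have no 1 CPM added, and those of SYN1, SYP and RIMS1 rest on levels below 10 CPM. A fold against the day-11 control therefore reflects both libraries.

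In the FGF2 set the main contrast for these genes was the day of harvest. Between the day-6 and day-12 controls, 7 of 9 rose and 2 of 9 fell (edgeR quasi-likelihood test, Benjamini-Hochberg adjusted p under 0.05 over 20142 genes). Over all genes tested, 64% were called, 31.7% higher and 32.3% lower, so a call was common. The median log2 change was 1.01 for the 9 genes and -0.0045 for all genes. The 9 of 9 genes had replicate ranges that did not overlap between the days, as had 84% of all genes. Later age and the withdrawal of doxycycline cannot be told apart in this contrast. Markers of dividing cells moved with it, from sums of 399.5 to 476.1 CPM over 6 markers in the day-6 control to 8.68 to 10.5 CPM in the day-12 control, and sums of neuron markers were 12020 to 12480 CPM on day 6 and 23600 to 23700 CPM on day 12. Sums of 8 progenitor markers were 1450 to 1455 CPM on day 6 and 809.1 to 874.0 CPM on day 12, and those of 9 stem cell markers 327.5 to 334.6 CPM and 184.9 to 195.9 CPM. Within most lists the markers went both ways by the test. Of 10 neuron markers 6 rose and 2 fell (TUBB3 and ELAVL3), and of 8 progenitor markers 2 rose and 5 fell. Among the latter, NES went from 1355 to 477 CPM and VIM from 52.6 to 344 CPM. Of 4 stem cell markers tested 1 rose and 3 fell, and all 6 markers of dividing cells fell. Their part in the result was not tested.

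**Figure D2:**
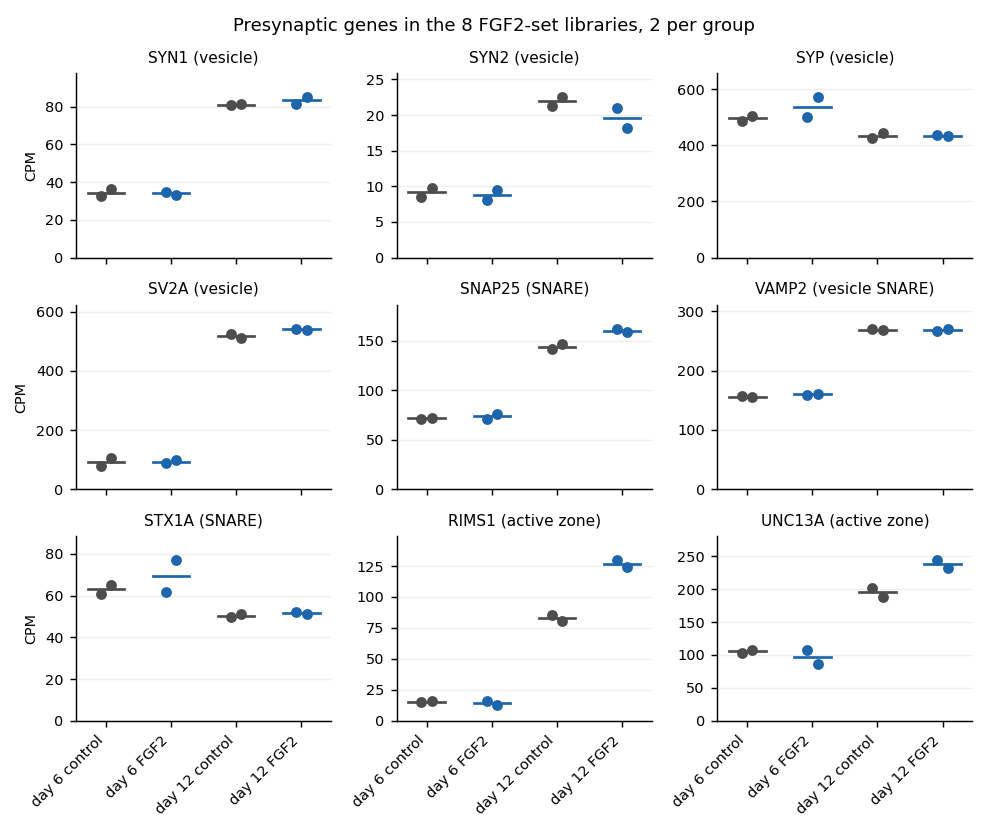
CPM of each gene (linear axis from 0) in the 8 libraries of the FGF2 set, with a point for each of the 2 libraries of a group and a line at their mean, grey for controls and blue for FGF2. SYP and STX1A stand lower on day 12 than on day 6 and the other genes higher, and RIMS1 and UNC13A stand higher with FGF2 than without it on day 12.

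Among the 9 genes, the main fit called only RIMS1 with FGF2, on day 12. A gene that was not called was not thereby shown to be unchanged. With early FGF2, 0 of 9 were called, as were 0% of all genes. At an unadjusted p under 0.05 it was 0 of 9 genes, with 390 genes higher and 268 lower over all genes, and DESeq2 and limma voom also called 0 of 9. With late FGF2, RIMS1 rose and the other 8 genes did not pass the test, against 2.17% of all genes called, 1.63% higher and 0.536% lower. Replicate ranges of FGF2 and control wells did not overlap for 1 of 9 genes on day 6 (VAMP2) and for 7 of 9 on day 12 (not SYP or VAMP2), where 28% and 46.4% of all genes had no overlap. The late effect minus the early effect was called for RIMS1 among the 9 genes, and for 0.73% of all genes, 0.645% with a higher late effect and 0.0844% with a lower one.

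**Figure D3:**
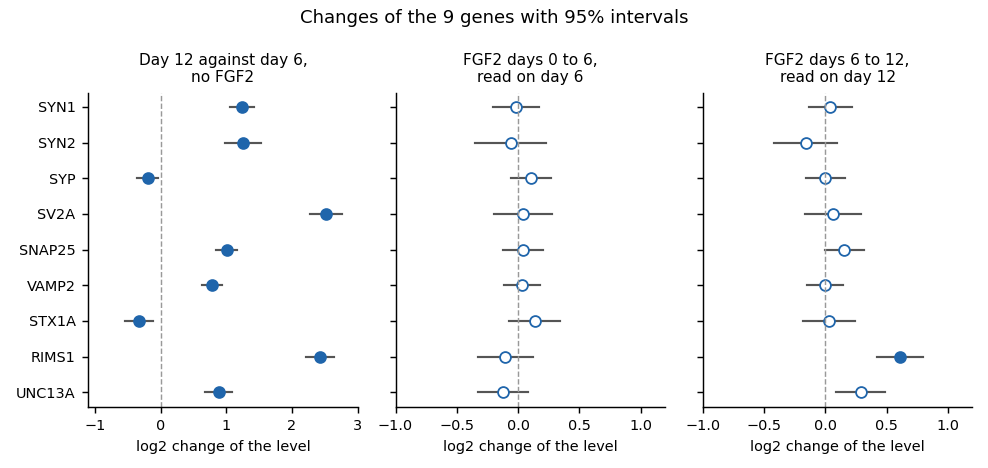
Log2 change of each gene with its 95% interval in 3 comparisons of the FGF2 set, filled where the adjusted p was under 0.05; the x axis of the left panel covers a wider range. All 9 points are filled for day 12 against day 6, none for early FGF2, and RIMS1, at 0.61, for late FGF2.

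Among the vesicle genes, SYN1 codes for synapsin I, a phosphoprotein that ties vesicles to each other and to the cytoskeleton. The gene lies on the minus strand at chrX:47571898-47619943 (GRCh38). Its RefSeq promoter is shown because it holds both parts of the element bound by REST, a repressor of neuronal genes in other cells. The bases from 250 to 87 before the RefSeq start, chrX:47619944-47620107 on the minus strand of GRCh38.p14, read as follows, with the parts TTCAGCACC and GGACAG in capitals.
SYN1 upstream: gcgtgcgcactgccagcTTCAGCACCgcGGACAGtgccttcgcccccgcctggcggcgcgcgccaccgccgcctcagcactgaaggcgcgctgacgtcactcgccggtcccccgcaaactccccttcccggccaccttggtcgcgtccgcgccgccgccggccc

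SYN1 was counted at 7.67 CPM on day 0, at 6.61 and 1.75 CPM in the day-5 and day-11 controls, and at 86.5 and 106 CPM with doxycycline. Both libraries with doxycycline were far above the others, 13.1-fold (interval 11.4 to 15.1) on day 5 and 60.7-fold (46.8 to 80.1) on day 11. The wider gap on day 11 goes with the lower control, which held 58 counts. In the FGF2 set, SYN1 stood at 32.6 and 36.2 CPM in the day-6 control wells, 35.0 and 33.1 CPM with early FGF2, 80.6 and 81.3 CPM in the day-12 control wells, and 81.6 and 84.9 CPM with late FGF2. The day-12 wells were all above the day-6 wells. SYN1 rose by a log2 of 1.23 ± 0.0862 (SE) from day 6 to day 12, with an adjusted p of 5.63e-09 by edgeR. Of its exon bases, 8.37% are shared with ARAF and AL009172.2.

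SYN2 codes for synapsin II, a second member of the synapsin family, on the plus strand at chr3:12004402-12191400. The stem cells of day 0 had 9.27 CPM of SYN2, the day-5 and day-11 controls 9.66 and 5.57 CPM, and the libraries with doxycycline 19.7 and 30.4 CPM. Its distance from the controls was the smallest of the 9 genes on day 5, at 2.04-fold (interval 1.79 to 2.33). On day 11 it was 5.46-fold (4.66 to 6.42), and its log2 ratio of 2.26 became 1.98, just under 4-fold, with library totals. SYN2 in the FGF2 set stood at 8.55 and 9.78 CPM in the day-6 control wells, 8.15 and 9.44 CPM with early FGF2, 21.3 and 22.5 CPM in the day-12 control wells, and 21.0 and 18.2 CPM with late FGF2. The days did not overlap, and SYN2 rose by a log2 of 1.26 ± 0.130 (SE), close to the rise of SYN1. Both synapsins thus stood in a like proportion on both days: per kilobase of exons, the SYN1 level was 5.67 and 5.50 times that of SYN2 in the day-6 control wells and 5.62 and 5.37 times in the day-12 control wells. In the doxycycline set the same ratio of levels was 1.23 on day 0, 0.466 in the day-11 control and 5.18 with doxycycline on day 11.

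SYP codes for synaptophysin, an abundant protein of the vesicle membrane and a common marker of terminals, on the minus strand at chrX:49187804-49200259. SYP had 8.79 CPM on day 0, 12.5 and 2.02 CPM in the controls of day 5 and day 11, and 409 and 454 CPM with doxycycline. The libraries with doxycycline stood 32.6-fold (interval 29.5 to 36.1) and 225-fold (177 to 291) above their controls. SYP was the vesicle gene that did not go up between the days of the FGF2 set. It stood at 487.8 and 505.7 CPM in the day-6 control wells and at 500.1 and 570.6 CPM with early FGF2. In the day-12 control wells it stood at 424.4 and 443.0 CPM, and with late FGF2 at 434.7 and 433.0 CPM. The day-12 control wells were both below the day-6 control wells, and SYP fell by 0.20 ± 0.0763 (SE) on the log2 scale, with an adjusted p of 0.0354 by edgeR. That call is weak: it was kept in 7 of 15 alternatives, with a log2 change of -0.14 and an adjusted p of 0.116 with library totals and an adjusted p of 0.0593 with DESeq2. It was lost without any of 6 libraries in turn (either day-6 control, day-12 control or day-12 FGF2 well), with adjusted p-values up to 0.18.

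SV2A codes for a glycoprotein of the vesicle membrane that is the binding site of the antiseizure drug levetiracetam, on the minus strand at chr1:149903318-149917882. It was already counted at 73.5 CPM on day 0 and at 97.6 and 99.9 CPM in the day-5 and day-11 controls, and reached 444 and 517 CPM with doxycycline. The libraries with doxycycline stood 4.55-fold (interval 4.39 to 4.73) and 5.18-fold (4.99 to 5.37) above their controls. SV2A in the FGF2 set stood at 76.9 and 104.6 CPM in the day-6 control wells, 88.1 and 98.5 CPM with early FGF2, 524.9 and 511.5 CPM in the day-12 control wells, and 541.9 and 539.2 CPM with late FGF2. The day-6 wells thus stood near the level of the libraries without doxycycline in the other run, and the day-12 wells near that of its libraries with doxycycline, though no test crosses the runs. SV2A had the largest change of the 9 genes, a rise of 2.51 ± 0.115 (SE) on the log2 scale, or 5.71-fold (95% interval 4.82 to 6.77), with an adjusted p of 3.45e-11. RIMS1 was close behind, with an overlapping interval (5.38-fold, 4.65 to 6.23). Leaving out each library in turn moved the log2 change of SV2A between 2.30 and 2.75, so their ranking is not firm. SYP and SV2A, both of the vesicle membrane, changed in their ratio: per kilobase of merged exons, the SYP level was 5.87 and 4.47 times that of SV2A in the day-6 control wells and 0.748 and 0.801 times in the day-12 control wells. Which of them was higher on day 12 depends on the length used, since per kilobase of the longest transcript SYP stood at 173.6 and SV2A at 117.3 CPM.

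Among the SNARE genes, SNAP25 codes for the membrane-anchored SNARE of the plasma membrane that gives the complex a pair of its helices, on the plus strand at chr20:10218830-10307418. SNAP25 had 0.861 CPM on day 0, 0.624 and 0.452 CPM in the day-5 and day-11 controls, and 105 and 228 CPM with doxycycline. Of the 9 genes it was the lowest in CPM in each of the 3 libraries without doxycycline, with 34, 20 and 15 counts, and it showed the widest ratios, 168-fold (interval 108 to 275) on day 5 and 505-fold (306 to 902) on day 11. SNAP25 in the FGF2 set stood at 71.3 and 72.1 CPM in the day-6 control wells, 71.3 and 76.5 CPM with early FGF2, 141.5 and 146.4 CPM in the day-12 control wells, and 162.0 and 158.7 CPM with late FGF2. It rose by a log2 of 1.01 ± 0.0765 (SE) between the days, 2.01-fold, with an adjusted p of 1.56e-08. Late FGF2 wells were both above the day-12 control wells, by a log2 of 0.16 ± 0.0745 (SE), but this did not pass the test, with an adjusted p of 0.485. It was called in 1 of 15 alternatives, the fit of the day-12 groups alone, with an adjusted p of 0.0468. In the authors' deposited tables its adjusted p for late FGF2 was 0.111 by DESeq2 and 0.053 by limma.

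VAMP2 codes for synaptobrevin 2, the SNARE carried by the vesicle, on the minus strand at chr17:8159149-8163546. It was counted at 20.2 CPM on day 0, 19.0 and 35.4 CPM in the day-5 and day-11 controls, and 212 and 281 CPM with doxycycline. The ratio was 11.2-fold (interval 10.3 to 12.1) on day 5 and 7.94-fold (7.47 to 8.44) on day 11, the smaller value going with the higher day-11 control. In the FGF2 set VAMP2 stood at 156.4 and 155.7 CPM in the day-6 control wells, 159.2 and 160.1 CPM with early FGF2, 269.5 and 268.4 CPM in the day-12 control wells, and 267.2 and 270.2 CPM with late FGF2. Its replicates lay close together, and it rose by a log2 of 0.79 ± 0.0698 (SE), or 1.72-fold, with an adjusted p of 9.71e-08. With late FGF2 its log2 change was -0.0012, with a 95% interval from -0.15 to 0.15. Of its exon bases, 13.2% are shared with AC129492.3 on the same strand.

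STX1A codes for syntaxin 1A, a SNARE of the plasma membrane, on the minus strand at chr7:73699206-73719672. STX1A had 7.24 CPM on day 0, 14.1 and 8.16 CPM in the day-5 and day-11 controls, and 62.5 and 75.1 CPM with doxycycline. The ratio was 4.43-fold (interval 4.01 to 4.91) on day 5 and 9.20-fold (8.11 to 10.5) on day 11, and the day-5 log2 ratio of 2.07 became 1.91, under 4-fold, with library totals. STX1A in the FGF2 set stood at 60.9 and 65.1 CPM in the day-6 control wells, 61.7 and 76.8 CPM with early FGF2, 49.9 and 51.0 CPM in the day-12 control wells, and 52.0 and 51.2 CPM with late FGF2. Against the direction of its partners SNAP25 and VAMP2, STX1A fell by 0.32 ± 0.1001 (SE) on the log2 scale between the days, to 0.80 times its level, with an adjusted p of 0.011. The call was lost without the second day-6 control well (adjusted p = 0.0951) or without the first day-12 control well (adjusted p = 0.057). Per kilobase, the SNAP25 level was 1.29 and 1.22 times that of STX1A in the day-6 control wells and 3.12 and 3.16 times in the day-12 control wells. Of the exon bases of STX1A, 17.9% are shared with BUD23 on the opposite strand, and the strand setting of the counting is not given in the sources used here, so reads of both genes cannot be told apart there.

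Among the active zone genes, RIMS1 codes for RIM1, a scaffold that binds RAB3 on vesicles, Munc13 and calcium channels, on the plus strand at chr6:71886703-72403143. It was counted at 2.00 CPM on day 0, 1.06 and 4.07 CPM in the day-5 and day-11 controls, and 46.1 and 88.0 CPM with doxycycline. The libraries with doxycycline stood 43.4-fold (interval 31.0 to 62.9) and 21.7-fold (18.2 to 25.9) above their controls. In the FGF2 set RIMS1 stood at 15.3 and 15.7 CPM in the day-6 control wells and at 15.6 and 13.1 CPM with early FGF2, and these ranges overlapped. The day-12 control wells stood at 85.8 and 80.7 CPM, and the late FGF2 wells, at 129.5 and 124.4 CPM, were both above them. RIMS1 rose from day 6 to day 12 by a log2 of 2.43 ± 0.0984 (SE), 5.38-fold, with the smallest adjusted p of the 9 genes, 8.57e-12.

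With late FGF2, RIMS1 rose further by a log2 of 0.61 ± 0.0869 (SE), from 83.2 ± 3.63 to 126.9 ± 3.58 CPM (SD, n = 2 each), or 1.52-fold (95% interval 1.34 to 1.73), with an adjusted p of 0.000804 by edgeR. The call held in 15 of 15 alternatives, with adjusted p-values up to 0.0466. In the authors' deposited tables the log2 change was 0.56 by DESeq2 and 0.60 by limma. Early FGF2 gave a log2 change of -0.10 (95% interval -0.33 to 0.12). The late effect exceeded the early one by a log2 of 0.71 ± 0.136 (SE), with an adjusted p of 0.0193. This difference was called in 8 of 14 alternatives and was lost without any of 6 libraries in turn (either day-6 control, day-12 control or day-12 FGF2 well), with adjusted p-values up to 0.172. Late FGF2 also went with a higher sum of the 10 neuron markers, 26300 to 26950 CPM against 23600 to 23700 CPM. Of these, 2 of 10 rose by the test (NEFL and NEFM) and 0 fell. The list as a whole was not higher, with a median log2 change of -0.02. The median marker level was 2388 and 2429 CPM in the late FGF2 wells against 2556 and 2456 CPM in the day-12 control wells. The sum of 8 progenitor markers was 976.0 to 1054 CPM against 809.1 to 874.0 CPM, of which 0 rose and SOX1 fell. Their part in the result was not tested.

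UNC13A codes for Munc13-1, the priming factor that opens syntaxin, on the minus strand at chr19:17601328-17688365. UNC13A had 79.2 CPM on day 0, 102 and 29.5 CPM in the day-5 and day-11 controls, and 227 and 233 CPM with doxycycline. The level with doxycycline was nearly the same on both days, while the ratio went from 2.23-fold (interval 2.14 to 2.32) to 7.90-fold (7.39 to 8.45) as the control of day 11 stood lower. UNC13A in the FGF2 set stood at 102.8 and 108.2 CPM in the day-6 control wells and 107.7 and 86.0 CPM with early FGF2. The day-12 control wells stood at 201.3 and 188.5 CPM, and the late FGF2 wells, at 243.5 and 232.3 CPM, were both above them. It rose by a log2 of 0.89 ± 0.0966 (SE) between the days, 1.85-fold, with an adjusted p of 1e-06.

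The late FGF2 change of UNC13A was a log2 of 0.29 ± 0.0947 (SE; 95% interval 0.086 to 0.49) and did not pass the test over all genes, with an adjusted p of 0.199. Whether it passed changed with the settings, and the cause was not tested. It was called when the day-12 groups were fitted alone (adjusted p = 0.000197), without the first or the second day-6 FGF2 well (adjusted p = 0.000484 and 0.00039) and with no filter on low counts (adjusted p = 0.0428). In the authors' deposited tables its adjusted p was 4.75e-05 by DESeq2 and 0.000301 by limma. With early FGF2 its log2 change was -0.12 and not called, but without the first day-6 FGF2 well it was -0.29 with an adjusted p of 0.00551. Without that same well STX1A and SYP were called higher with early FGF2, at a log2 of 0.29 and 0.20, and 2523 of all genes were called. Apart from RIMS1, UNC13A and SNAP25, the other 6 genes had late FGF2 changes from -0.16 for SYN2 to 0.06 for SV2A, none past the test, with 95% intervals that reach from -0.42 to 0.29.

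The UNC13A start also holds both parts of the REST element, on the opposite strand and with 8 bases between them, at chr19:17688340-17688362 on the minus strand of GRCh38.p14, from 8 before to 15 after the RefSeq start. The matches are set beside each other with the parts in capitals, read on the strand of each gene.
SYN1: TTCAGCACCgcGGACAG
UNC13A: CTGTCCgcgcccccGGTGCTGAA

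The SYN1 match lies at chrX:47620074-47620090, 233 to 217 bases before the start. RefSeq promoters of 300 bases were found for 8 of the 9 genes, in 11 entries. TTCAGCACC on either strand was in 0.376% and GGACAG in 20.5% of 35116 promoters, and both in the same direction with 0 to 12 bases between them in 15 promoters (0.0427%), 2 of them those of SYN1 and UNC13A. The spacing of up to 12 bases was chosen after the sequences were seen, so this share is no measure of how rare such matches are. With exactly 2 bases between the parts, 5 promoters (0.0142%) held both, and among the genes searched only that of SYN1 did. CAGATG, a form of the E-box bound by proneural factors, was in 14.7% of all promoters on either strand. It was in those of SYN1 and SV2A and in 1 of 3 RIMS1 promoters. The SYN1 entry, the SV2A entry and that RIMS1 entry each start inside the gene as GENCODE release 29 draws it. The wider CANNTG, which includes CAGATG, was in 68.7% of all promoters. No match of these motifs was found in the SYN2, SYP and STX1A windows. A match is a description of letters and not a bound site.

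Compared per kilobase of exons, the order of the levels changed between day 6 and day 12. In the day-6 control it ran from SYP at 95.2 CPM per kb to VAMP2 at 47.8, then SNAP25 at 21.4, SV2A at 18.8 and STX1A at 17.1, whose neighbouring replicate ranges overlapped. UNC13A at 9.43 and SYN1 at 9.01 CPM per kb overlapped too, and SYN2 at 1.61 and RIMS1 at 1.21 CPM per kb came last, apart from each other. In the day-12 control SV2A led at 107 CPM per kb, followed by SYP at 83.2 and VAMP2 at 82.3, which overlapped, and then SNAP25 at 42.9. SYN1 at 21.2, UNC13A at 17.4, STX1A at 13.7, RIMS1 at 6.51 and SYN2 at 3.86 CPM per kb followed with no overlap between neighbours. The share of SYP in the summed level per kilobase of the 9 genes was 43.4% and 42.6% in the day-6 control wells and 21.5% and 22.4% in the day-12 control wells. Both libraries with doxycycline of the other run, on day 5 and on day 11, had the same order per kilobase of exons as the day-12 control. On day 11 it ran from SV2A at 107 to SYN2 at 5.35 CPM per kb, and there SYP and VAMP2, at 87.1 and 86.1, and UNC13A and STX1A, at 20.8 and 20.3, were near each other. In the stem cells of day 0 the order was another, with SV2A at 15.2, UNC13A at 7.08 and VAMP2 at 6.18 CPM per kb ahead and RIMS1 last at 0.156. With the length of the longest transcript in place of all exon bases, SYP led on day 12 at 173.6 CPM per kb, before VAMP2 at 124.9 and SV2A at 117.3. The orders of the runs then no longer matched. STX1A stood above SYN1 with doxycycline, at 29.8 against 26.2 CPM per kb on day 5 and 35.8 against 32.1 on day 11. In the day-12 control it stood below SYN1, at 24.1 against 24.5 CPM per kb.

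**Figure D4:**
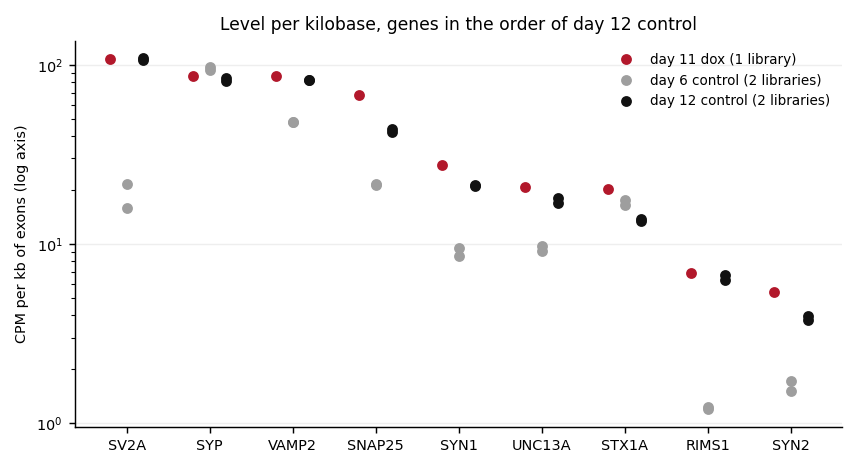
CPM per kilobase of exons (log axis) of each gene in the library with doxycycline on day 11 (red, 1 library) and in the day-6 (grey) and day-12 (black) controls, 2 libraries each, with the genes in the order of the day-12 control. SV2A and RIMS1 show the widest gaps between the grey and black points, and SYP and STX1A lie higher on day 6.

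The 9 genes followed each other in the doxycycline set, and 7 of them did so in the FGF2 set. Over the 5 libraries of the former, each gene's correlation with the mean of the other members, on log2(CPM + 1), lay between 0.874 for UNC13A and 0.9945 for SNAP25. Over the 8 libraries of the FGF2 set it was 0.9698 to 0.9969 for 7 genes, but -0.8801 for SYP and -0.8759 for STX1A. These libraries share their day and doxycycline schedule, so the values describe a pattern of few groups. No share of all genes with a like correlation was taken, so the values do not set these genes apart. Centred within each run and over all 13 libraries, the 36 pairs of genes had r from 0.4507 for SV2A and STX1A to 0.9747 for SNAP25 and VAMP2, with a median of 0.8354. Of 11722 other genes with a mean of at least 5 CPM in each run, those most like the mean of the 9 were TMOD2 (r = 0.9972), NAPB (0.9968), SCAMP5 (0.9957), RAB33A (0.9948) and PAXBP1-AS1 (0.9945).

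The wider presynaptic lists hold 70 further genes for vesicles, neuronal SNAREs and their partners, the active zone and endocytosis, all of which passed the filter on low counts. From day 6 to day 12, 49 of 70 rose and 15 fell, with a median log2 change of 0.79 beside -0.0045 for all genes. Over all genes 31.7% rose and 32.3% fell, beside which the count of each list is to be read. Over 15 alternatives 49 genes rose in each and 13 to 16 fell. Of a further list of 19 SNAREs and partners of other membrane routes, 3 rose (VAMP4, STX7 and STX12, with VAMP4 named after its value was seen) and 8 fell, with a median of -0.29. In the doxycycline set, 33 of 67 further presynaptic genes with at least 10 CPM were at least 4-fold higher on day 5 and 39 of 68 on day 11, and 2 were lower on both days. Over all genes 12.6% were higher and 11.5% lower on day 5, and 11.5% and 9.85% on day 11. With other settings the higher genes numbered 29 to 37 and 32 to 41. Here too, genes with a low control entered only through the library with doxycycline.

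**Figure D5:**
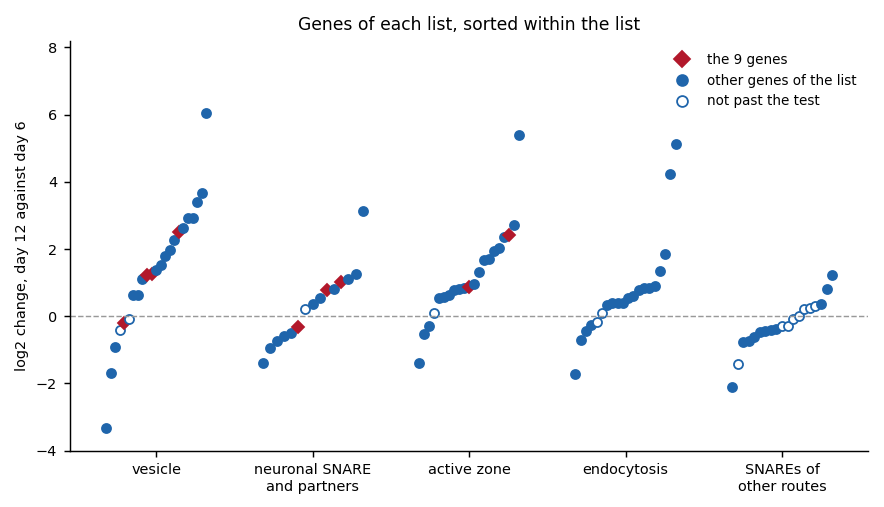
Log2 change from day 6 to day 12 (controls) of every gene of the 5 lists, sorted within each list; red diamonds are the 9 genes, blue circles the others, and open symbols did not pass the test. Most points of the vesicle, active zone and endocytosis lists lie above 0, the neuronal SNARE list is split at 8 higher and 6 lower, and SNAREs of other routes lie mostly below 0.

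Of the vesicle list, with 4 of the 9 genes among its 23, 17 rose and 4 fell between the days. RAB3C, a small GTPase of vesicles that RIM binds, rose from 51.2 ± 0.355 to 386 ± 29.5 CPM (SD, n = 2 each; log2 2.92, adjusted p = 2.4e-13). The vesicular glutamate transporters, which fill vesicles with glutamate, went opposite ways: SLC17A6 (VGLUT2) rose by a log2 of 1.96, and SLC17A7 (VGLUT1) fell by 3.34 on the log2 scale, from 516 ± 0.270 to 51.1 ± 0.439 CPM (adjusted p = 2.1e-14). The other 3 that fell were SYP, SV2B and RAB3D, the last named after its value was seen. In the doxycycline set SYT1, the fast calcium sensor of release, stood at 28.7 and 425 CPM without and with doxycycline on day 5, then at 54.5 against 490 CPM on day 11. RAB3A, the main vesicle RAB3 of neurons, stood at 8.82 and 124 CPM on day 5, then at 1.48 against 197 CPM on day 11. The 2 vesicle-list genes that were lower were SYPL1, a relative of SYP in many cell types, at 85.9 and 9.04 CPM on day 5, and SYNGR2, at 46.9 and 4.21 CPM, both named after their values were seen.

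Of the neuronal SNARE list, with 3 of the 9 genes among its 15, 8 rose and 6 fell, where 31.7% and 32.3% of all genes did. DOC2A, a calcium-binding release factor, rose from 4.25 ± 0.117 to 37.4 ± 3.18 CPM (SD, n = 2 each). NAPB, a SNAP that helps take SNARE complexes apart, rose by a log2 of 1.10. The complexins CPLX1 and CPLX2, which clamp assembled SNAREs, both fell: CPLX1 from 83.6 ± 1.63 to 31.7 ± 3.27 CPM, and CPLX2 by 0.59 on the log2 scale. With doxycycline on day 11, CPLX2 stood at 269 CPM against 0.512 CPM without it.

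Of the active zone list, with RIMS1 and UNC13A among its 21, 17 rose and 3 fell. RIMBP2, which links RIM to calcium channels, rose from 18.5 ± 2.29 to 94.7 ± 6.58 CPM (SD, n = 2 each; log2 2.36, adjusted p = 1.8e-11). RIMS3, a short RIM, rose by a log2 of 1.94, APBA1 (Mint1) by 2.03 and ERC2, an ELKS scaffold, by 1.71. The 3 that fell were PPFIA1 and PPFIA4, which are liprins, and UNC13B (Munc13-2), all named after their values were seen. UNC13B fell by 0.53 on the log2 scale, from 267 ± 7.44 to 184 ± 2.90 CPM, while its relative UNC13A rose. In the doxycycline set BSN, the large scaffold bassoon, stood at 10.9 and 174 CPM without and with doxycycline on day 5, then at 5.63 against 178 CPM on day 11.

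Of 20 endocytosis genes, which recover vesicle membrane after release, 14 rose and 4 fell. DNM3, a neuronal dynamin, rose from 6.83 ± 0.358 to 237 ± 2.87 CPM (SD, n = 2 each; log2 5.12, adjusted p = 1.64e-14), and DNM2, the dynamin of most cell types, fell from 227 ± 3.20 to 68.5 ± 0.867 CPM. SH3GL3, an endophilin, rose by a log2 of 4.24, and SNAP91, the clathrin adaptor AP180, by 1.34. Among SNAREs of other routes, STX7 and STX12 of endosomes rose by a log2 of 1.23 and 0.82, while STX2 and VAMP3 fell by 0.63 and 0.72 on the log2 scale. With doxycycline, 2 of 18 such SNAREs were at least 4-fold higher and 4 lower on day 5, beside 12.6% and 11.5% of all genes. On day 11 it was 2 and 3 of 18, beside 11.5% and 9.85%. STX7 stood at 51.9 and 213 CPM without and with doxycycline on day 5, then at 61.0 against 248 CPM on day 11. STX12 stood at 13.9 and 126 CPM on day 5, then at 21.3 against 185 CPM. SNAP23, the relative of SNAP25 outside neurons, stood at 29.4 and 5.12 CPM without and with doxycycline on day 5, then at 27.98 against 5.94 CPM on day 11, the reverse of SNAP25.

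With late FGF2, 9 of the 70 further presynaptic genes were higher and 4 lower at an unadjusted p under 0.05. Over all 20142 genes these were 1318 and 833. DESeq2 and limma voom each called 4 of the 70 higher and 1 lower. Over all genes DESeq2 called 321 and 117, and limma voom 342 and 130. By edgeR 4 of the 70 rose and 0 fell, against 1.63% and 0.536% of all genes. This edgeR count grew without either day-6 FGF2 well. With the day-12 groups fitted alone it was 7 higher and 6 lower, and more of all genes were called there too. SV2B, a relative of SV2A, rose from 2.73 ± 0.481 to 6.30 ± 0.127 CPM (SD, n = 2 each; log2 1.21, adjusted p = 0.00175), though between the days without FGF2 it fell by 1.69 on the log2 scale. DOC2B, a calcium-binding partner of Munc13, rose from 13.9 ± 0.555 to 24.4 ± 0.0365 CPM (log2 0.81, adjusted p = 0.000804). UNC13C (Munc13-3) rose from 2.90 ± 0.487 to 9.44 ± 1.65 CPM (log2 1.71, adjusted p = 0.000131). These 3 calls held in 15 of 15 alternatives. SYT1 rose by a log2 of 0.31 with an adjusted p of 0.0492, and that call was kept in 7 of 15 alternatives. It was lost with library totals (adjusted p = 0.0838) and RLE size factors (0.0641), and without either control well of either day or either late FGF2 well, with adjusted p-values up to 0.513. Of the 19 SNAREs of other routes, 0 passed the test with edgeR, DESeq2 or limma voom, and 0 had an unadjusted p under 0.05.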

How the data were processed

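Bulk RNA was sequenced from 13 libraries in 9 groups (TruSeq RNA v2, single-end, per the labels). The authors deposited raw counts per gene for each set, for which the submitters' processing notes name Subread, featureCounts 1.5.0 and the GRCh38 build; strand setting and annotation release are not given in the sources used here. Normalized signal values of the doxycycline set, deposited by the authors, served only as an alternative. For either FGF2 comparison the authors deposited p-values and log2 fold changes, by DESeq2 and by limma, whose 16 per-sample columns were not used. The members, lists and tests were chosen with earlier results of these data known.

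A single edgeR 4.0.16 model (R 4.3.3) covered the 8 libraries of the FGF2 set (filterByExpr, which kept 20142 genes and all 9 members; TMM; quasi-likelihood test; Benjamini-Hochberg adjustment over all genes, two-sided). Every adjusted p not credited to another tool is from this fit. Errors of levels are SD and of log2 changes SE, with 2 wells per group. DESeq2 1.42.0 and limma voom 3.58.1, RLE size factors, library totals, no filter, a replicate block, the compared groups alone and leaving out each library were the alternatives. The fits were also run on simulated counts, and no result of that run is used here. Those counts had the same spread in all groups, so the wider gap between the day-6 FGF2 wells was not covered. The doxycycline set has 1 library per group and no test. There, ratios were taken on the log2 scale with 1 CPM added to each level, for genes that reached 10 CPM in 1 or both libraries; alternatives were library totals, the authors' values, a pseudocount of 0.1 or 5 CPM and a minimum of 1 CPM. Levels between genes were compared per kilobase of merged exons.

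Symbols came from the deposited tables (26349 genes) or GENCODE release 29 (30921); 3369 genes had none. Genes named from the wider lists were up to 4 called ones of smallest p for day 12 against day 6 and for late FGF2, and up to 4 past 4-fold on both days with the highest CPM on day 11 with doxycycline; not all are printed. Promoters are from RefSeq (GRCh38.p14). Some genes of the lists are not reported here.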

Additional observations from a re-analysis of the deposited data

Results flagged for a closer look

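The difference between the late and the early FGF2 effect passed the test for RIMS1 and for SV2B. For RIMS1 the late effect was higher than the early one by a log2 of 0.7123 (edgeR, adjusted p = 0.0193): with late FGF2 both wells were above both control wells, and with early FGF2 the ranges overlapped. Ranges did not overlap with late FGF2 for 46.4% of all genes. The call for RIMS1 was kept in 8 of 14 alternatives. It was lost without either day-6 control, day-12 control or day-12 FGF2 well. For SV2B, a vesicle membrane glycoprotein related to SV2A, the difference was a log2 of 1.3336 (edgeR, adjusted p = 0.0157). Its call was lost without either day-6 control well (adjusted p = 0.1 and 0.0574), the first day-12 control well (0.121) or either day-12 FGF2 well (0.0529 and 0.0755). Its level stayed low, at 2.73 ± 0.481 CPM in the day-12 control and 6.30 ± 0.127 CPM with late FGF2 (SD, n = 2 each).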

How the results depend on the processing

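With late FGF2, the 9 genes held 1 call by edgeR, 2 without a filter on low counts and 3 with the day-12 groups fitted alone, and all genes held 656 and 1338 calls under these settings against 437. For the late effect minus the early one, no filter gave 268 calls over all genes against 147. With a pseudocount of 5 CPM, 101 genes passed 4-fold between days 11 and 5 with doxycycline, 52 between the day-5 control and day 0, and 307 between the day-11 control and day 0. Leaving out each library in turn gave 0 to 3 calls among the 9 genes and 0 to 2523 among all for early FGF2, 1 to 2 and 184 to 1188 for late FGF2, and 0 to 2 and 78 to 1345 for the difference; the cause was not tested. The highest counts came without a day-6 FGF2 well. The fit with the replicate block, where the meaning of the numbers is not stated and their deviations correlated by 0.01 to 0.22, gave 0, 1, 1 and 9 calls among the 9 genes for early FGF2, late FGF2, their difference and day 12 against day 6, the same number as without it, and 0, 598, 206 and 13200 over all genes.

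Small changes that were not called turned sign. For late FGF2, SYP had a log2 change of -0.0090 with RLE size factors, -0.0162 with library totals and -0.0090 with DESeq2, and VAMP2 had 0.0006 with the day-12 groups alone. Leaving out each library moved SYP between -0.0219 and 0.0278 and VAMP2 between -0.0082 and 0.0112. For early FGF2 these ranges were -0.0888 to 0.0669 for SYN1, -0.1675 to 0.0453 for SYN2, -0.1643 to 0.2835 for SV2A, -0.0052 to 0.0962 for SNAP25, -0.0275 to 0.2881 for STX1A, -0.2311 to 0.0159 for RIMS1 and -0.2922 to 0.0329 for UNC13A. For the difference they were -0.0242 to 0.1314 for SYN1, -0.2062 to 0.0130 for SYN2, -0.2208 to 0.2268 for SV2A and -0.2542 to 0.0615 for STX1A. The changes of all 9 genes between day 6 and day 12 kept their direction in all 15 alternatives.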
